A study of Mus musculus with 419 samples.

Results

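The testis was 1 of 19 tissues sequenced in a study of energy deficiency in CBA/CaJ mice. All samples titled as testis were taken, 12 of the 419 libraries of the series. They came from 12 males, each with its own animal number: 6 labelled Control, described by the submitters as energy-sufficient, and 6 labelled Deficient, described as energy-deficient. In each treatment 3 mice were collected at ZT05 and 3 at ZT17, where zeitgeber time (ZT) counts hours from lights on. How the deficiency was brought about and the age of the mice are not given in the sources used here. The question was which genes of the testis differ in level with energy deficiency, and whether that difference depends on the time of collection.

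The testis makes sperm and androgens in separate compartments. Germ cells divide, pass through meiosis and reshape into spermatids inside the seminiferous tubules, where Sertoli cells nourish them and form the blood-testis barrier. Leydig cells lie between the tubules and turn cholesterol into testosterone under the control of luteinizing hormone from the pituitary. Food shortage is known to lower that pituitary drive in mammals.

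Levels are given as CPM, counts scaled to a common library size with TMM factors, which adjust for differences in library composition. CPM is not divided by gene length, so levels are compared between libraries and not between genes. Library totals ran from 14554241 to 32441565 counts. The median correlation of a library with the other 11 was 0.985 to 0.991 on log2 CPM. Germ cell and Sertoli cell markers fit the labelled tissue: the protamine Prm1 measured 1335 to 3272 CPM and the Sertoli transcription factor Wt1 39.0 to 58.8 CPM. Insl3, a defining hormone of Leydig cells, was nearly absent, at 0.0517 to 0.971 CPM. It lies inside Jak3 on the same strand (chr8:71689214-71690575 within chr8:71676296-71690575, GRCm38), so its reads may not have been assigned to it and its level is uncertain. Of 20 epididymis and duct epithelium genes, 14 had too few counts to be tested. Crisp1, an epididymal secretory protein, was at 1.49, 2.17 and 3.96 CPM in 3 Deficient libraries and at 0 to 0.222 CPM in the other 9.

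Individual libraries stood apart from the rest. In Deficient ZT17 replicate 1 the 22 Leydig cell markers summed to 324.8 CPM, against 779.4 to 1038.9 CPM in the other 11 libraries. The same library had the lowest mitochondrial share, 0.973% against 1.20% to 2.03%. Some results that include it are given with and without it, and others are only marked as including it. Control ZT17 replicate 1 had the highest mitochondrial share, 2.03%, and the lowest median correlation, 0.9847 beside 0.985 for the Deficient library just named. All 6 genes called below kept their calls without that Control library. In bulk tissue, fewer cells of a type and less RNA per cell cannot be told apart.

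Over all genes the testis response was small. In edgeR's quasi-likelihood test, averaged over the 2 collection times, 6 of 20816 genes tested passed an adjusted p of 0.05 (0.0288%). Dcn and Mro rose (0.00961% of genes), and Klk1b21, Klk1b24, Klk1b27 and Gprc5a fell (0.0192%). At an unadjusted p under 0.05 there were 1235 genes higher (5.93%) and 1383 lower (6.64%) in the Deficient testes. All 6 Deficient libraries lay above all 6 Control libraries for 120 genes (0.576%) and below them for 88 (0.423%). The number called depended strongly on the test: DESeq2 called 109 genes higher and 55 lower, and edgeR without a filter on low counts called 151 and 207. Without Deficient ZT17 replicate 2 the main test called 51 genes, 15 higher and 36 lower. The call of each kallikrein and of Dcn held when any single library was left out, whereas Mro lost it in 7 and Gprc5a in 8 of the 12 such fits.

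The largest falls were in 3 glandular kallikreins. These are secreted serine proteases encoded by a cluster of related genes on chromosome 7, whose longest transcripts are 82.0% to 94.2% identical between members. Klk1b21, Klk1b24 and Klk1b27 are the members known from mouse Leydig cells. Klk1b21 (chr7:44102328-44106583) was at 1.11, 2.40 and 4.18 CPM in Control testes at ZT05 and at 4.92, 2.49 and 2.54 CPM at ZT17. In Deficient testes it was at 0.711, 0.474 and 0.336 CPM at ZT05 and at 0.158, 0.315 and 0.262 CPM at ZT17. Every Deficient value was below every Control value at both times. The mean was 2.94 ± 1.38 CPM (SD, n = 6) in Control and 0.376 ± 0.194 CPM (SD, n = 6) in Deficient testes, and the log2 fold change -3.07 ± 0.34 (SE, adjusted p = 0.00132).

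Klk1b24 (chr7:44188236-44192455) ran from 1.67 through a median of 4.04 to 7.80 CPM in Control testes and from 0.198 through 0.567 to 1.03 CPM in Deficient testes. Klk1b27 (chr7:44052290-44056712) ran from 0.778 through 1.46 to 4.20 CPM and from 0.136 through 0.193 to 0.323 CPM. Neither gene's ranges overlapped between treatments. The log2 fold changes were -2.80 ± 0.33 (SE, adjusted p = 0.00143) for Klk1b24 and -2.98 ± 0.41 (SE, adjusted p = 0.00686) for Klk1b27. All 3 levels were low, so counting noise is a larger part of their spread than for most genes named here. The transcripts of the 3 genes are 93.3% to 94.1% identical to each other in GENCODE M21, so how reads were shared among them is uncertain.

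The other members of the family did not pass the test. Of the 14 kallikreins listed, 11 had enough counts to be tested and 8 of those stayed above the threshold, with log2 fold changes between -0.19 and 0.16. Klk1b8 averaged 102.6 ± 20.1 CPM (SD, n = 6) in Control and 96.2 ± 9.22 CPM (SD, n = 6) in Deficient testes, with -0.09 ± 0.11 as log2 fold change and its SE (adjusted p = 0.766). Klk1b26 averaged 17.6 ± 1.93 and 17.02 ± 1.53 CPM (SD, n = 6 each), and Klk1, the tissue kallikrein, 6.53 ± 1.30 and 6.67 ± 0.634 CPM (SD, n = 6 each). Klk1b22, too low to be tested, was at 0.0692 to 0.787 CPM in Control and 0 to 0.129 CPM in Deficient testes, and it was called lower when no filter on low counts was applied.

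**Figure D1:**
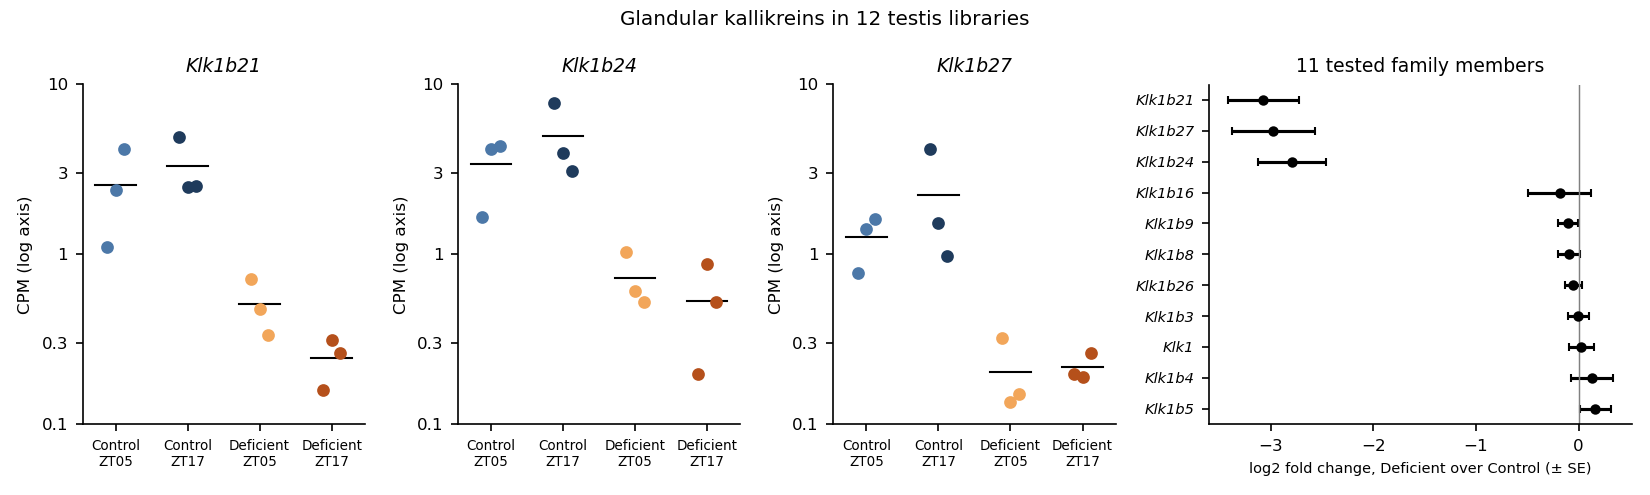
Levels of Klk1b21, Klk1b24 and Klk1b27 in each testis library (CPM, log axis; points are libraries, lines are group means of 3) and, at the right, the log2 fold change of Deficient over Control with its SE for the 11 tested kallikreins. The 6 Deficient libraries lie below the 6 Control libraries in each of the 3 plotted genes, and the other 8 members lie between -0.19 and 0.16.

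The promoters of the 3 genes called in the main test were compared with those of the other 11 family members, of which 8 were tested and 3, Klk1b22 among them, were too low to be tested. RefSeq (GRCm38.p6) promoter windows were found for all 14 kallikreins, and the 250 bases before each annotated start were compared. The 3 promoters share an unbroken run of 89 bases, shown in capitals, which no other of the 32851 promoter windows in the table holds. The run was found as the longest stretch common to these 3 closely related genes. Among the other 11 windows, the longest piece of it ran from 9 bases in Klk1b22 to 29 bases in Klk1b1. Klk1b22 was itself called lower when no filter on low counts was applied. Whether the run bears on the fall was not tested. Klk1b8 is shown as the comparison, with its longest stretch in common with that run, 23 bases, in capitals. The windows, all on the plus strand, are chr7:44102042-44102291 for Klk1b21, chr7:44187986-44188235 for Klk1b24, chr7:44052040-44052289 for Klk1b27 and chr7:43950416-43950665 for Klk1b8.
Klk1b21: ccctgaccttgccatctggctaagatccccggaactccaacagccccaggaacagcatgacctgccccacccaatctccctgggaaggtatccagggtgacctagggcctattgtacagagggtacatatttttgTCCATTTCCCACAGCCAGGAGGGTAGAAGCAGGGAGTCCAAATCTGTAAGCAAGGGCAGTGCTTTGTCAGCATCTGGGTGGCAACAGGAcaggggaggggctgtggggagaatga
Klk1b24: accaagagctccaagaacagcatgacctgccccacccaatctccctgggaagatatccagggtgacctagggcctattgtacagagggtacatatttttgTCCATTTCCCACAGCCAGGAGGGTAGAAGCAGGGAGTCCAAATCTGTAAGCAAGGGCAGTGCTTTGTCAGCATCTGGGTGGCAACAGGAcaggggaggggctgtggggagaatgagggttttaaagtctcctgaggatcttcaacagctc
Klk1b27: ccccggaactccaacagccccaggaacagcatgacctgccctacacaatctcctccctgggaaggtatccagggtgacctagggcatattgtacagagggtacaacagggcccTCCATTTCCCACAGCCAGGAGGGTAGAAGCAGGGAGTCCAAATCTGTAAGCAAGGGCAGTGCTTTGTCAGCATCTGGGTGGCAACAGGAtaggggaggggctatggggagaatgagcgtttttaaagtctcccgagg
Klk1b8: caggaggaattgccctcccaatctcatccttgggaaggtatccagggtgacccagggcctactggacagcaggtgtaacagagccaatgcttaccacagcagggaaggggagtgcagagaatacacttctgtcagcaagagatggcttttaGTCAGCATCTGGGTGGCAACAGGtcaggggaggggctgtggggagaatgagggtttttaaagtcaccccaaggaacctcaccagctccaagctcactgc
Aligned over these windows, the 3 promoters were 91.9% to 97.7% identical to each other. They were 78.5% to 86.5% identical to the other 11 kallikreins, which were 73.1% to 92.2% identical among themselves. The full palindromic site shared by the androgen and glucocorticoid receptors is a pair of facing AGAACA hexamers 3 bases apart. It was in none of the 14 windows and in 0.00913% of all windows. All motifs were searched on both strands, and the hexamer lies within the palindrome. AGAACA alone was in Klk1b24 and Klk1b3, against 16.1% of all windows. The core of the NR5A1 site, AGGTCA, was in 11 of the 14, against 14.0% of all windows. The 3 genes that fell were among them, as were members that did not pass the test, such as Klk1 and Klk1b8. The longer NR5A1 site, CAAGGTCA, was in Klk1 and Klk1b21 only, against 1.33% of all windows. The 14 windows are related in sequence, so matches in them are not independent. These matches describe letters and are not evidence of binding.

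Steroid synthesis was examined next, in the order of the pathway. Star, which carries cholesterol into the mitochondrion, was at 70.0, 68.5 and 53.5 CPM in Control testes at ZT05 and at 55.8, 51.1 and 61.0 CPM at ZT17. In Deficient testes it was at 32.7, 59.9 and 41.3 CPM at ZT05 and at 7.32, 24.4 and 33.4 CPM at ZT17. A single Deficient library, at ZT05, reached the Control range. The log2 fold change was -0.95 ± 0.23 (SE), which did not pass the adjusted test (adjusted p = 0.144).

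Cyp11a1, the side-chain cleavage enzyme that starts steroid synthesis, ran from 70.8 through 73.8 to 81.6 CPM in Control and from 3.20 through 38.7 to 67.6 CPM in Deficient testes. Cyp17a1, which makes the androgen precursors, ran from 286.7 through 305.5 to 373.3 CPM and from 22.75 through 202.5 to 225.6 CPM. For both enzymes every Deficient library was below every Control library. Neither passed the adjusted test, with log2 fold changes of -1.03 ± 0.36 (SE, adjusted p = 0.262) for Cyp11a1 and -0.92 ± 0.32 (SE, adjusted p = 0.262) for Cyp17a1. The lowest value of Star, of Cyp11a1 and of Cyp17a1 came from Deficient ZT17 replicate 1. Without it the log2 fold changes were -0.72 ± 0.13 for Star (SE, adjusted p = 0.0620), -0.74 ± 0.14 for Cyp11a1 (SE, adjusted p = 0.0684) and -0.65 ± 0.11 for Cyp17a1 (SE, adjusted p = 0.0449). In that fit of 11 libraries, 13 genes were called of 21072 tested (0.0617%), 8 higher (0.038%) and 5 lower (0.0237%), with 5 of the 6 named earlier among them.

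Not all enzymes of the pathway had lower values. Hsd3b1, a 3-beta-hydroxysteroid dehydrogenase, ran from 11.4 through 12.2 to 20 CPM in Control and from 16.9 through 20.6 to 27.5 CPM in Deficient testes. The ranges overlapped only because of the highest Control library, and the log2 fold change was 0.66 ± 0.12 (SE, adjusted p = 0.0696). It was called in DESeq2 and when Control ZT05 replicate 1, Control ZT17 replicate 1, Deficient ZT05 replicate 3 or Deficient ZT17 replicate 2 was left out. Hsd3b6, the form of the same enzyme typical of adult Leydig cells, averaged 87.4 ± 9.85 CPM (SD, n = 6) in Control and 91.2 ± 23.3 CPM (SD, n = 6) in Deficient testes (adjusted p = 0.918). The longest transcripts of the 2 genes are 82.2% identical. Hsd17b3, which makes testosterone, averaged 20.2 ± 3.81 and 18.5 ± 4.92 CPM (SD, n = 6 each), with an adjusted p of 0.726. Its log2 fold change was -0.15 with all libraries, 0.01 without Deficient ZT17 replicate 1 and -0.04 without Control ZT17 replicate 1.

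**Figure D2:**
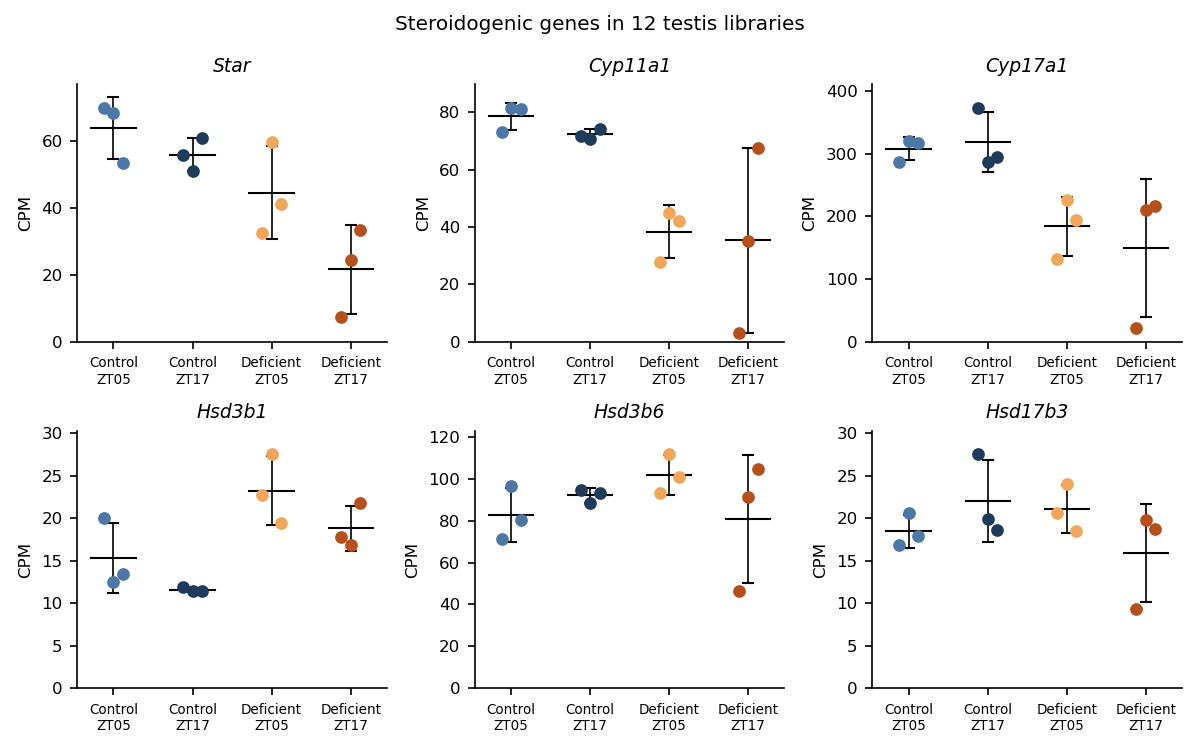
Levels of 6 steroidogenic genes in the 12 testis libraries (CPM), with points for libraries and lines and bars for the mean and SD of the 3 libraries of each group. Cyp11a1 and Cyp17a1 do not overlap between treatments, Hsd3b1 is higher in most Deficient libraries, and 1 Deficient library at ZT17 is lowest for Star, Cyp11a1, Cyp17a1, Hsd3b6 and Hsd17b3.

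Of the 24 genes of the steroidogenic pathway, all tested, none passed the adjusted test in the main fit. Without a filter on low counts, Star, Cyp11a1, Cyp17a1 and Lhcgr were called lower and Hsd3b1 higher (151 higher and 207 lower over all genes). In limma-voom, Star, Cyp17a1, Nr4a1 and Scarb1 were called lower and Hsd3b1 and Gata4 higher (563 and 735 over all genes). DESeq2 called Hsd3b1 and Gata4 higher and no gene of the list lower. In the main fit 17 of the 24 had a negative log2 fold change, with a median of -0.07 against -0.01 over all genes tested. At an unadjusted p under 0.05, 2 were higher and 6 lower, beside 5.93% and 6.64% of all genes. Without Deficient ZT17 replicate 1 these were 5 higher and 5 lower, Hsd3b6 and Nr5a1 joining the higher ones, beside 8.14% of all genes higher and 4.69% lower in that fit. Lhcgr, the receptor of luteinizing hormone, ran from 8.16 through 9.54 to 12.3 CPM in Control and from 2.81 through 6.95 to 9.82 CPM in Deficient testes, with wide overlap (log2 fold change -0.48 ± 0.21 SE, adjusted p = 0.355). Its lowest value came from Deficient ZT17 replicate 1, without which it was -0.28 ± 0.15 (SE, adjusted p = 0.446). Nr5a1, the transcription factor that drives many of these genes, averaged 36.3 ± 3.22 and 40.9 ± 7.96 CPM (SD, n = 6 each). Gata4, another of their regulators and also a Sertoli gene, was above all Control libraries in every Deficient library (21.4 to 24.1 against 25.1 to 32.1 CPM, adjusted p = 0.150). The transcription factor Nr4a1 averaged lower in Deficient testes, with a log2 change of -0.24 ± 0.07 (SE, adjusted p = 0.185).

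Genes of cholesterol supply were examined alongside. Of 25 genes of cholesterol synthesis and uptake, 24 were tested and none was called. At an unadjusted p under 0.05, 3 were lower and none higher, beside 6.64% and 5.93% of all genes. Of the 24, 18 had a negative log2 fold change, with a median of -0.08. At ZT17 alone, with Deficient ZT17 replicate 1 included, 6 were lower and none higher at that p, beside 9.07% and 5.86% of all genes. Srebf2, the master regulator of the pathway, averaged 33.6 ± 2.02 CPM in Control and 28.4 ± 2.94 CPM in Deficient testes (SD, n = 6 each, adjusted p = 0.179). Dhcr7, the last enzyme of synthesis, averaged 20.8 ± 2.24 and 16.8 ± 3.42 CPM (SD, n = 6 each, adjusted p = 0.229). Scarb1, which takes up cholesterol from lipoproteins, averaged 103.1 ± 8.10 and 92.2 ± 6.24 CPM (SD, n = 6 each, adjusted p = 0.297).

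Sertoli cell genes were mostly higher in Deficient testes. Mro (maestro), a gene named for its male-specific expression in the developing gonad, rose from 39.5 ± 2.20 to 52.2 ± 3.91 CPM (SD, n = 6 each). Its Control libraries ran from 35.3 through 40.1 to 41.6 CPM and its Deficient libraries from 46.4 through 53.7 to 55.7 CPM, with no overlap, and the log2 fold change was 0.40 ± 0.07 (SE, adjusted p = 0.0492). Of 33 Sertoli cell markers, 32 were tested and Mro alone was called. At an unadjusted p under 0.05, 16 were higher and none lower, beside 5.93% and 6.64% of all genes tested. Of the 32, 30 had a positive log2 fold change, with a median of 0.20, beside 47.4% of all genes with a positive value.

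Wt1, needed to keep Sertoli cell identity, did not overlap between treatments either (39.0 to 46.5 against 50.4 to 58.8 CPM, log2 fold change 0.32 ± 0.065 SE, adjusted p = 0.118). Abca1, a cholesterol exporter of Sertoli cells, averaged 24.4 ± 5.46 and 38.0 ± 8.25 CPM (SD, n = 6 each, adjusted p = 0.144). Both were thus higher on average without passing the test. Several other Sertoli genes were nearly level: Inha, the inhibin alpha subunit, averaged 49.6 ± 6.70 and 50.6 ± 9.97 CPM, and the androgen-responsive homeobox gene Rhox5 23.7 ± 3.81 and 25.3 ± 4.64 CPM (SD, n = 6 each). Fshr, the receptor of follicle-stimulating hormone, averaged 3.43 ± 0.613 and 4.19 ± 0.795 CPM (SD, n = 6 each), which was not past the adjusted test (0.414).

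Among 13 genes listed as androgen-responsive in Sertoli cells, 12 were tested and none was called. At an unadjusted p under 0.05, 2 were higher and none lower, beside 5.93% and 6.64% of all genes. Of 15 blood-testis barrier genes, all tested, none was called and 14 had a positive log2 fold change, with a median of 0.11. Of these 15, 3 were higher at an unadjusted p under 0.05, beside the same 5.93% of all genes. F11r, a junctional adhesion molecule, was at 29.0 to 33.7 CPM in Control and 34.8 to 43.7 CPM in Deficient testes (adjusted p = 0.147). Ocln, the tight junction protein occludin, ran from 4.18 to 5.22 and from 5.16 to 7.30 CPM (adjusted p = 0.144), touching at their ends. Without Deficient ZT17 replicate 1, 21 of 33 tested Sertoli markers were higher at an unadjusted p under 0.05 and none lower, beside 8.14% and 4.69% of all genes in that fit.

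Outside the tubules the clearest rise was in Dcn. Decorin, a small proteoglycan that binds collagen, was at 22.9, 23.2 and 21.4 CPM in Control testes at ZT05 and at 20.2, 24.7 and 24.8 CPM at ZT17. It was at 38.5, 52.0 and 32.1 CPM in Deficient testes at ZT05 and at 35.9, 31.1 and 33.7 CPM at ZT17. No library of either treatment fell within the range of the other. The log2 fold change was 0.69 ± 0.10 (SE, adjusted p = 0.0107). Of 21 stromal genes listed, 20 were tested, Dcn alone was called, and the median log2 fold change was 0.14. At an unadjusted p under 0.05, 7 were higher and none lower, beside 5.93% and 6.64% of all genes. Examples were osteoglycin (Ogn, 0.44 ± 0.12 SE, adjusted p = 0.168), the PDGF receptor Pdgfra (0.39 ± 0.11 SE, adjusted p = 0.171) and the complement inhibitor Serping1 (0.40 ± 0.12 SE, adjusted p = 0.185), all log2 fold changes.

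Collagen and matrix genes were listed separately. Of 26 collagen and matrix genes, all tested, none was called, and the median log2 fold change was -0.01. At an unadjusted p under 0.05, 3 were higher and 3 lower, beside 5.93% and 6.64% of all genes. At ZT05 3 were higher and none lower at that p (median 0.05), beside 3.9% and 2.12% of all genes. At ZT17 none was higher and 7 lower (median -0.11), beside 5.86% and 9.07%, with Deficient ZT17 replicate 1 included. The difference between the 2 responses was called for none of these genes. Sparc, a collagen-binding glycoprotein, had a log2 fold change of 0.21 ± 0.07 (SE) and the fibrillar collagen Col1a1 one of -0.29 ± 0.12 (SE), neither past the test (adjusted p of 0.213 and 0.328). Peritubular myoid and smooth muscle genes gave 0 called among 13. Of these, 2 were higher and none lower at an unadjusted p under 0.05, beside 5.93% and 6.64% of all genes. Of 18 macrophage markers none was called and 2 were higher at an unadjusted p under 0.05, beside the same 5.93%. Without Deficient ZT17 replicate 1, 6 macrophage markers were higher, beside 8.14% of all genes. The myeloid enzyme Lyz2 was among them, at 3.44 to 5.33 CPM in Control and 5.38 to 9.49 CPM in Deficient testes (adjusted p = 0.144). Endothelial markers gave 1 higher and 1 lower of 15 tested at an unadjusted p under 0.05, which is near the shares of all genes.

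Germ cell genes were examined by stage. Among genes of early meiotic prophase, 25 tested, 1 was higher and 1 lower at an unadjusted p under 0.05, and none of the 20 genes of pachytene and later spermatocytes was below that p, with log2 fold changes of -0.12 to 0.08 in the latter. Round spermatid genes had 21 of 24 negative log2 fold changes, a median of -0.11, and 9 lower and none higher at an unadjusted p under 0.05. Elongating spermatid genes also had 21 of 24 negative values, a median of -0.10, and 7 lower and none higher. None of these passed the adjusted test. Over all genes the median was -0.01, with 6.64% lower and 5.93% higher at an unadjusted p under 0.05.

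The spermatid genes with the smallest p-values included Actl7b, an actin-like protein of the sperm head, at 443.5 ± 56.2 CPM in Control and 350.4 ± 56.5 CPM in Deficient testes (SD, n = 6 each, adjusted p = 0.160). Spaca4, a sperm membrane protein, had a log2 change of -0.47 ± 0.13 (SE, adjusted p = 0.172), and Tekt4, a filament protein of the sperm tail, one of -0.23 ± 0.07 (SE, adjusted p = 0.184). Prm1, which packs sperm DNA, ran from 1950 through 2677 to 3272 CPM in Control and from 1335 through 2241 to 2472 CPM in Deficient testes (adjusted p = 0.262). Tnp1, the transition protein that precedes it, averaged 4090 ± 536.0 and 3853 ± 431.6 CPM (SD, n = 6 each, adjusted p = 0.702). Without Deficient ZT17 replicate 1 the medians were -0.13 for round and -0.12 for elongating spermatids, and all 24 elongating spermatid genes had a negative value.

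Genes of earlier germ cells gave few small p-values. Of 14 tested genes of undifferentiated spermatogonia, 1 was higher and 1 lower at an unadjusted p under 0.05. Of 12 genes of differentiating spermatogonia 1 was higher and 2 lower. Over all genes tested, 5.93% were higher and 6.64% lower at that p. Gfra1, a receptor that marks stem spermatogonia, averaged 3.20 ± 0.686 and 3.34 ± 0.320 CPM (SD, n = 6 each). Etv5, a transcription factor of both stem spermatogonia and Sertoli cells, was at 29.9 to 31.8 CPM in Control and 32.5 to 39.0 CPM in Deficient testes, without overlap (adjusted p = 0.172). Stra8, which starts meiosis, averaged 14.5 ± 1.52 and 14.9 ± 3.26 CPM (SD, n = 6 each), and Sycp3, of the synaptonemal complex, 197.9 ± 30.01 and 209.6 ± 20.4 CPM (SD, n = 6 each).

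**Figure D3:**
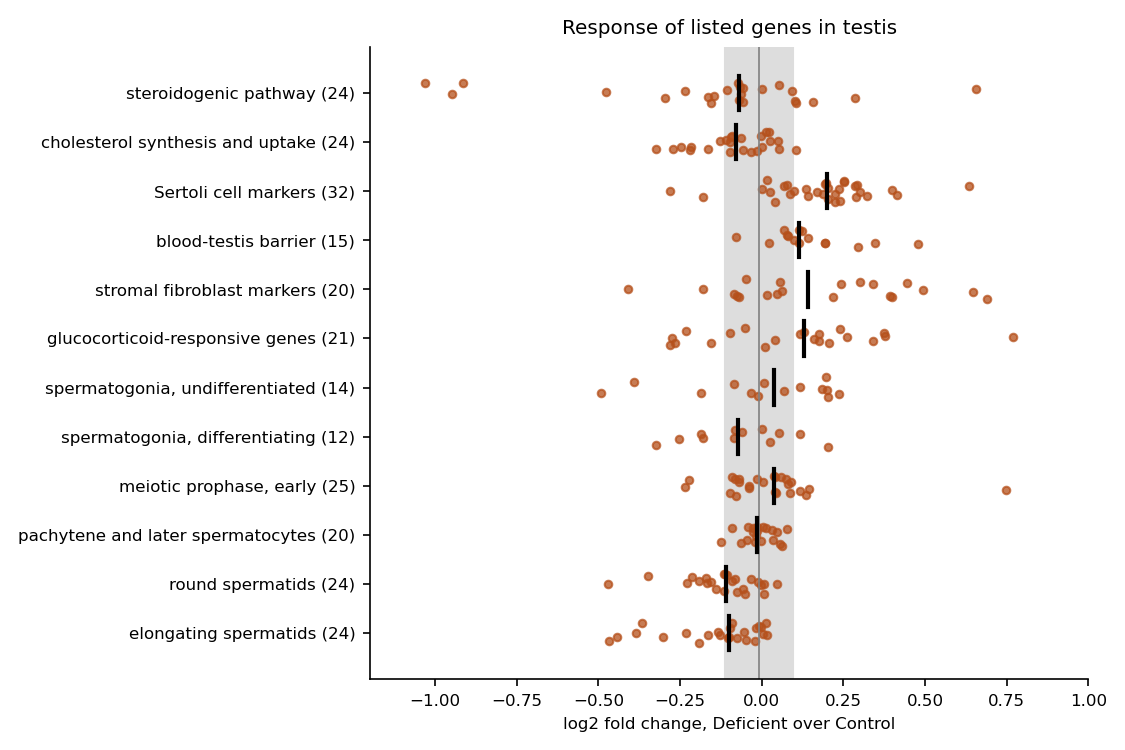
Log2 fold change of Deficient over Control in testis for the members of 12 gene lists (points, with the number tested in brackets), with each list's median as a black bar and the quartile range of all genes tested as a grey band. Sertoli cell genes lie mostly to the right, spermatid genes mostly to the left, and 3 steroidogenic genes lie near -1.

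Genes that answer to systemic signals of fasting and stress varied in direction. Of 21 tested glucocorticoid-responsive genes none was called, and the median log2 fold change was 0.13. At an unadjusted p under 0.05, 8 were higher and 2 lower, beside 5.93% and 6.64% of all genes. Mertk, a phagocytic receptor of Sertoli cells, was at 7.82 to 10.1 CPM in Control and 10.4 to 14.1 CPM in Deficient testes (adjusted p = 0.160). Tsc22d3, a classical glucocorticoid target, had a log2 change of 0.26 ± 0.09 (SE, adjusted p = 0.229) and the target Per1 one of -0.23 ± 0.08 (SE, adjusted p = 0.238). Of 20 tested genes of fasting and fat oxidation 4 were higher and 1 lower at an unadjusted p under 0.05, with Txnip, an inhibitor of glucose uptake, at 43.0 ± 7.83 and 57.9 ± 11.3 CPM (SD, n = 6 each, adjusted p = 0.189). Of 16 tested genes of the growth hormone and IGF axis 3 were higher at an unadjusted p under 0.05, beside 5.93% of all genes. Igf1 itself averaged 11.02 ± 2.10 and 9.84 ± 1.75 CPM (SD, n = 6 each, adjusted p = 0.525).

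Gprc5a, an orphan receptor induced by retinoic acid, was the only gene called that overlapped between treatments. It was at 1.94, 3.99 and 2.99 CPM in Control testes at ZT05 and at 4.85, 4.50 and 4.55 CPM at ZT17, and in Deficient testes at 1.61, 2.10 and 3.29 CPM at ZT05 and at 1.15, 1.39 and 1.12 CPM at ZT17. At ZT17 the treatments were well separated, while at ZT05 they overlapped. The log2 fold change was -1.14 ± 0.19 (SE, adjusted p = 0.0492) over both times, -0.33 ± 0.26 (SE, adjusted p = 0.904) at ZT05 and -1.94 ± 0.28 (SE, adjusted p = 0.0132) at ZT17. Without Deficient ZT17 replicate 1 it was -1.11 ± 0.21 (SE, adjusted p = 0.0684) over both times. The difference between the times was not itself past the test (-1.61, adjusted p = 0.569).

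Apart from the genes called, those with the smallest p-values and a mean of at least 1 CPM were taken in each direction. On the lower side only some of them are named. On the higher side, besides Hsd3b1 and Wt1, stood Diaph2, a formin of the actin skeleton (8.70 ± 0.766 and 12.3 ± 1.43 CPM, SD, n = 6 each, adjusted p = 0.0645), and the nuclear RNA export factor Nxf3 (92.7 ± 2.93 and 116.8 ± 9.51 CPM, SD, n = 6 each, adjusted p = 0.0919). Both had every Deficient library above every Control library. The adhesion molecule Vcam1, the creatine transporter Slc6a8, the choline transporter Slc44a2, the collagen-folding enzyme Fkbp14, the zinc finger protein Zmym3 and the membrane protein Gpm6b followed, each with an adjusted p of 0.118 and log2 fold changes of 0.30 to 0.59. Vcam1 is also on the list of Leydig cell markers. Vcam1 had an adjusted p of 0.0120 without Deficient ZT17 replicate 1, where it was lowest of the Deficient libraries at 58.2 CPM.

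On the lower side, Fam83e led with 23.4 ± 2.49 and 16.8 ± 1.91 CPM (SD, n = 6 each, adjusted p = 0.0620). Its locus overlaps Spaca4 on the other strand, and whether the counting used strand is not given in the sources used here. The fatty acid desaturase Fads1 was at 55.9 to 71.8 CPM in Control and 29.95 to 50.8 CPM in Deficient testes (adjusted p = 0.131), and the water channel Aqp2 at 6.30 to 8.30 and 0.119 to 4.85 CPM (adjusted p = 0.144). Neither range overlapped. Without Deficient ZT17 replicate 1, the source of the lowest Aqp2 value, Aqp2 had a log2 change of -1.03 ± 0.14 (SE, adjusted p = 0.00775). Pfn3, a testis profilin, and the nuclear lamin Lmnb2 had log2 fold changes of -0.70 ± 0.14 (SE, adjusted p = 0.118) and -0.45 ± 0.09 (SE, adjusted p = 0.127), with overlap between treatments.

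The 2 collection times gave different numbers of small p-values. At ZT05 none of 20816 genes was called (0%), with 1254 genes at an unadjusted p under 0.05 (6.02%), 3.9% higher and 2.12% lower. DESeq2 called 6 there. At ZT17, Klk1b21, Klk1b24 and Gprc5a were called, all lower (0.0144%), with 3108 genes at an unadjusted p under 0.05 (14.9%), 5.86% higher and 9.07% lower. Those calls at ZT17 rested on single libraries: none was left without Deficient ZT17 replicate 1 or replicate 3, 872 genes were called without replicate 2, and 207 without Control ZT17 replicate 3. The difference of the 2 responses gave 0 called (0%) and 1805 at an unadjusted p under 0.05 (8.67%; 3.18% higher, 5.49% lower) in edgeR, and 0 called in DESeq2. Other settings called 247 genes without a filter on low counts, 2 in limma-voom and 1 without Deficient ZT17 replicate 2. Round spermatid genes had a median of -0.15 at ZT05 and -0.07 at ZT17, and Sertoli cell genes one of 0.30 at ZT05 and 0.13 at ZT17. At an unadjusted p under 0.05, round spermatid genes gave 1 lower at ZT05 and 7 at ZT17. Elongating spermatid genes, with medians of -0.09 and -0.10, gave 0 and 9 lower, and neither list any higher. Sertoli cell genes gave 16 higher and 0 lower at ZT05, and 8 and 1 at ZT17. The steroidogenic genes had a median of -0.01 at ZT05 and -0.145 at ZT17. At that p, 4 of the 24 were higher and 1 lower at ZT05, and 1 higher and 8 lower at ZT17. The shares of all genes are those above. Leydig cell markers, a list that shares genes with the steroidogenic one, had 20 tested. Of these, 3 were higher and 3 lower at that p at ZT05, and 1 higher and 8 lower at ZT17. The ZT17 values include the library that stood apart.

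Between the times themselves, the testis showed no called gene in the main test. Averaged over treatments, ZT17 against ZT05 gave 0 called (0%) and 1440 at an unadjusted p under 0.05 (6.92%; 2.36% higher, 4.55% lower) in edgeR, and 0 called in DESeq2. This difference gave 160 called genes without a filter on low counts and 560 in limma-voom. Within Control testes 270 genes had an unadjusted p under 0.05 (1.3%; 0.668% higher, 0.629% lower), and within Deficient testes 3540 (17%; 7.14% higher, 9.86% lower). Both counts rest on 1 fit with a spread shared by all 12 libraries, and the Control share is below that given by chance alone. The Deficient count includes Deficient ZT17 replicate 1. The contrast of the 2 time differences is the same as that of the 2 responses, with 0 called. The core clock is a feedback loop in which Clock and Arntl drive Per, Cry and Nr1d genes, and most organs swing in these genes over the day. Of 19 clock genes, none was called in testis and 2 had an unadjusted p under 0.05. Dbp, an output gene of the loop, was at 17.9, 16.98 and 12.5 CPM in Control testes at ZT05 and at 15.7, 13.5 and 10.5 CPM at ZT17, with overlap.

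The male adrenal gland of the same study served as the reference for the time difference. The 12 male adrenal libraries, 3 per group as in testis, came from mice with other animal numbers, so the organ and the set of mice cannot be told apart. In a joint fit, 18 of the 19 clock genes differed between ZT17 and ZT05 in adrenal (3.5% of 23069 genes were called), and the time difference itself differed between the organs for 13 of the 19 (0.542% of all genes). For Dbp the log2 difference of ZT17 over ZT05 was -3.43 ± 0.32 (SE) in adrenal and -0.41 ± 0.31 (SE) in testis, a gap of 3.03 ± 0.43 (SE, adjusted p = 0.000567). For Arntl it was 3.25 ± 0.37 (SE) and 0.34 ± 0.46 (SE), a gap of -2.91 ± 0.59 (SE, adjusted p = 0.0195). The 6 clock genes whose gap was not called were Per1, Per2, Hlf, Clock, Bhlhe40 and Nfil3.

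**Figure D4:**
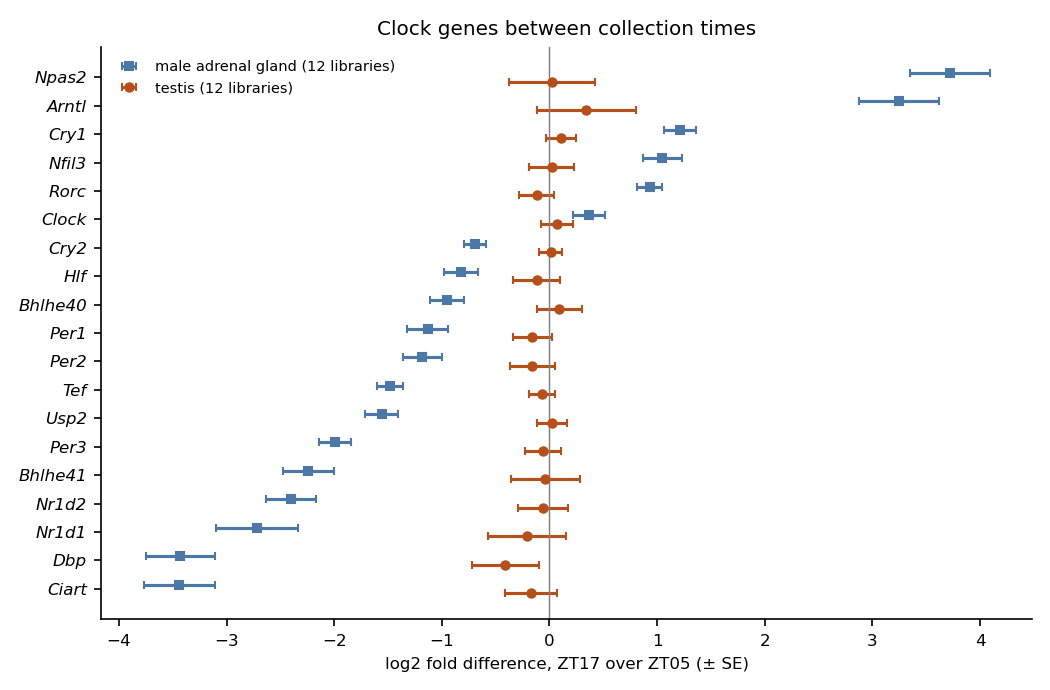
Log2 fold difference between ZT17 and ZT05, averaged over treatments, for 19 clock genes in testis (circles) and male adrenal gland (squares), with SE bars from the joint fit of 24 libraries. Adrenal values run from -3.44 to 3.72, whereas those of testis run from -0.41 to 0.34.

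The response to deficiency was also compared with that of the male adrenal gland, the other steroid-producing organ of the male. The 2 responses differed for 250 of 23069 genes (1.08%), 145 with a higher and 105 with a lower value in testis. Klk1b21 had a log2 fold change of -3.06 ± 0.32 (SE) in testis and -0.26 ± 0.49 (SE) in adrenal, where it was at 0.214 CPM in Control (difference -2.80 ± 0.62 SE, adjusted p = 0.0205). Hsd3b6 was near level in testis and fell by 1.20 ± 0.18 (SE, log2) in adrenal, a difference of 1.25 ± 0.25 (SE, adjusted p = 0.00823). No other of the 24 steroidogenic genes had a called difference between the organs. Star had log2 fold changes of -0.95 ± 0.21 (SE) in testis and 0.10 ± 0.21 (SE) in adrenal, a difference of -1.05 ± 0.30 (SE) that was not past the test (adjusted p = 0.0946). Gprc5a differed by -1.80 ± 0.34 (SE, adjusted p = 0.00628), and the growth hormone receptor Ghr, which rose in adrenal by 0.86 ± 0.11 (SE, log2), by -0.89 ± 0.17 (SE, adjusted p = 0.00628).

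The ovary, the other gonad, responded more widely. In a joint fit with 12 ovary libraries from females, the responses differed for 1107 of 24157 genes (4.58%), 723 with a higher and 384 with a lower value in testis. Both organs shared an estimate of spread there, and no testis response was called in that fit. Of 13 kallikreins in that fit, 6 fell in ovary, where 11.1% of all genes were called lower. They were the 3 that fell in testis, and Klk1, Klk1b1 and Klk1b8. The difference between the gonads was called for Klk1, Klk1b1 and Klk1b8, each higher in testis (2.99% of all genes). For Klk1 that difference was 2.86 ± 0.32 (SE, adjusted p = 0.000242) and for Klk1b8 2.26 ± 0.64 (SE, adjusted p = 0.0464). The log2 fold changes in ovary were -2.09 ± 0.52 (SE, adjusted p = 0.00923) for Klk1b21, -1.82 ± 0.53 (SE, adjusted p = 0.0214) for Klk1b24 and -2.68 ± 0.69 (SE, adjusted p = 0.0111) for Klk1b27. The differences of these 3 between the gonads were -0.97 ± 0.88, -0.93 ± 0.78 and -0.28 ± 1.02 (SE), with adjusted p of 0.608, 0.558 and 1, intervals wide enough to leave room for sizeable differences. In ovary Klk1b21 averaged 47.0 CPM in Control and 10.9 CPM in Deficient animals.

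Elsewhere the gonads parted. Of 26 collagen and matrix genes, 22 fell in ovary (11.1% of all genes) and none was called in testis, and the difference was called for 13, each higher in testis (2.99% of all genes). Col1a1 had log2 fold changes of -2.92 ± 0.29 (SE) in ovary and -0.28 ± 0.28 (SE) in testis, a difference of 2.64 ± 0.39 (SE, adjusted p = 0.00122). Igf1, a growth factor made in both gonads, fell by 1.83 ± 0.20 (SE, log2) in ovary and had -0.15 ± 0.21 (SE) in testis, a difference of 1.68 ± 0.29 (SE, adjusted p = 0.00325). The cold-inducible RNA-binding protein Cirbp rose by 1.37 ± 0.14 (SE, log2) in ovary and had 0.08 ± 0.14 (SE) in testis (difference -1.29 ± 0.20 SE, adjusted p = 0.00154). None of the 24 steroidogenic genes differed between the gonads in this test, with SEs above 1 for the differences of Star, Cyp11a1 and Cyp17a1.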

How the data were processed

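RNA was measured by bulk sequencing of poly(A) libraries (TruSeq Stranded mRNA) made from 500 ng of TRIzol-extracted RNA, per the labels' protocols. The values are whole-number gene counts as the authors deposited them, used without rescaling. Per the submitters' processing notes, the genome was GRCm38 and the tools included STAR 2.7.10a, cutadapt 4.1, DESeq2 1.34.0 and FastQC 0.11.9. The counting tool, its strand setting and the annotation release are not given in the sources used here. Gene positions are from GENCODE M21 and promoters from RefSeq (GRCm38.p6).

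The 12 testis libraries were fitted in R 4.3.3 with edgeR 4.0.16 (quasi-likelihood, TMM, 4 groups of treatment and time, genes kept by filterByExpr at a minimum count of 10 and a total of 15). Contrasts averaged over the 2 times, and p-values were adjusted over all 20816 genes by Benjamini-Hochberg at 0.05. Tests on simulated counts preceded the fits. Joint fits added the 12 ovary or 12 male adrenal libraries. DESeq2 1.42.0 and limma 3.58.1 (voom with sample weights, chosen after seeing the data) were alternatives. Named genes were drawn from those called, the next 10 in each direction, a fixed panel of genes and the 4 members of each list with the smallest p. Not every gene of these sets is named in the text. The panel, the 34 lists and the comparisons were chosen with earlier results of these data known, and a few further list members and the X-linked genes were picked after seeing their values. The results of 1 gene are not reported here. Replicate numbers were not used to pair the libraries in the main fit. Between groups, residuals of libraries with the same number correlated at 0.043 on average (-0.162 to 0.266). Those with different numbers correlated at -0.021 (-0.334 to 0.34). For 5 of the 12 libraries the closest library of another group had the same number. No pair of replicates agreed within counting noise (lowest chi-square per gene 3.44).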

Additional observations from a re-analysis of the deposited data

Results flagged for a closer look

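Among 128 arms of 6 libraries tested, 10 held a library far from the others. Chance alone would flag about 1 in 20 of the 128, and the arms are not independent, since they share the same libraries. In Deficient testes, Dcn was highest in ZT05 replicate 2 (52.05 CPM, next 38.5), as was Fkbp5 (60.39 CPM). Ghr was highest in ZT05 replicate 1 (5.751 CPM), and Hsd3b6 and Csf1r were lowest in ZT17 replicate 1 (46.21 and 2.057 CPM). In Control testes, ZT17 replicate 1 was highest for Klk1b27 (4.197 CPM, next 1.61) and Hsd17b3 (27.48 CPM) and lowest for Mro (35.28 CPM) and Fkbp5 (41.97 CPM), and ZT05 replicate 1 was highest for Hsd3b1 (20 CPM). Every Deficient value of Dcn still lay above, and every Deficient value of Klk1b27 below, all Control values.

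Responses that differed from those of the ovary, by the test of the difference in the joint fit, were those of Gprc5a (-1.47), Inhbb (1.58), Igf1 (1.68), Per1 (-1.02), Cirbp (-1.29) and Col1a1 (2.64), as testis minus ovary log2 fold changes. Against the male adrenal gland they were those of Gprc5a (-1.80), Klk1b21 (-2.80), Hsd3b6 (1.25) and Ghr (-0.89). Inhbb, the activin and inhibin beta B subunit, fell in ovary by 1.43 ± 0.32 (SE, log2) and had 0.15 ± 0.32 (SE) in testis, and Per1 rose in ovary by 0.80 ± 0.16 (SE) and had -0.22 ± 0.16 (SE) in testis.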

How the results depend on the processing

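The number of called genes rested on the tool and the filter. The response averaged over both times (2 higher, 4 lower) gave 151 higher and 207 lower with no low-count filter, 109 and 55 in DESeq2, 563 and 735 in limma-voom with sample weights, and 0 and 0 when genes needed 5 CPM in 3 libraries, where Dcn and Mro were tested and lost their calls and the kallikreins and Gprc5a were not tested. DESeq2 called 4 of the 6 genes and gave no adjusted p for Klk1b21 and Klk1b27. With the replicate block there was 1 higher and 3 lower, Mro and Gprc5a losing their calls. Gprc5a also lost its call with DESeq2 size factors and in the additive model. Leaving out 1 library gave 1 to 15 higher and 3 to 36 lower. The cause was not tested.

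At ZT05 (0) there were 51 called with no filter, 6 in DESeq2, 100 in limma-voom and 0 to 5 without 1 library. At ZT17 (3) there were 758, 171, 1294 and 0 to 872, and 0 at 5 CPM. The difference of the responses between times (0) gave 247 with no filter, 2 in limma-voom and 0 to 1 without 1 library. The time difference (0) gave 160 and 560, and 0 without any 1 library. Testis minus ovary (723 higher, 384 lower) gave 224 lower with no filter, 1146 higher and 996 lower in DESeq2, and 409 to 599 and 211 to 303 without 1 testis library. Testis minus adrenal (145, 105) gave 371 and 387 with no filter, 278 and 212 in DESeq2, and 97 to 150 and 73 to 98 without 1 testis library.

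Some uncalled values near 0 turned sign: Inha (-0.005) and Stra8 (-0.037) in limma-voom, and Dbp at 5 CPM (0.005), in DESeq2 (0.001) and with the replicate block (0.001). Leaving out 1 library took Csf1r from -0.146 to 0.127, Dbp from -0.08 to 0.073, Ghr from -0.105 to 0.03, Hsd17b3 from -0.226 to 0.005, Hsd3b6 from -0.063 to 0.205, Inha from -0.039 to 0.101, Pgk2 from -0.066 to 0.027, Rhox5 from -0.001 to 0.181 and Stra8 from -0.046 to 0.145, all log2 fold changes. With 3 libraries per group and few counts, low genes such as the kallikreins carry the widest errors.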

Other observations

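Genes of the X chromosome were often among the higher values. This set was chosen after its values were seen, since 5 of the 10 uncalled genes with the smallest p on the higher side (Diaph2, Nxf3, Zmym3, Gpm6b and Slc6a8) are X-linked and none on the lower side is, so it is described without a test. Of 794 X-linked genes tested, 537 (67.6%) had a positive log2 fold change, with a median of 0.088, against 46.4% and -0.012 for 19855 autosomal genes. At an unadjusted p under 0.05, 139 X-linked genes were higher (17.5%) and 13 lower (1.64%), against 5.48% and 6.87% of autosomal genes. All Deficient libraries lay above all Control libraries for 24 X-linked genes (3.02%) and below them for none, against 0.484% and 0.443% of autosomal genes. The X-linked share of all counts was 1.24% to 1.28% in the 6 Control libraries and 1.22%, 1.32%, 1.36%, 1.40%, 1.43% and 1.46% in the Deficient ones, so 5 of 6 Deficient libraries were above the Control range. Without Deficient ZT17 replicate 1 the X-linked genes gave 21.4% higher and 1.61% lower at an unadjusted p under 0.05, against 7.62% and 4.82% of autosomal genes. As background, X-linked genes are silenced in male germ cells during meiosis and only partly active in spermatids, while Sertoli cells and spermatogonia express them.

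Among other genes outside the comparisons above, Alas2, the erythroid heme synthesis enzyme and also X-linked, was at 20.8 to 24.2 CPM in Control and 25.6 to 27.4 CPM in Deficient testes without overlap (adjusted p = 0.144). The haemoglobin gene Hba-a1 went the other way, at 0.761 to 1.90 and 0 to 0.896 CPM, with overlap (adjusted p = 0.160). Fdxr, the reductase that supplies electrons to Cyp11a1, averaged 38.6 ± 3.60 and 38.6 ± 13.3 CPM (SD, n = 6 each). Its Deficient values were 43.7, 52.7 and 52.8 CPM at ZT05 and 21.1, 34.6 and 26.6 CPM at ZT17, a difference between the responses of -0.98 (log2) that did not pass the test (adjusted p = 0.569).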
